A study of Mus musculus with 76 samples.

Results

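The genes described here are 8 heterochronic and fetal RNA-binding genes of the mouse, Lin28a, Lin28b, Hmga1, Hmga2, Igf2bp1, Igf2bp2, Igf2bp3 and Trim71. They were listed by name, out of 56923 genes in the count tables. They were followed in embryonic diencephalon at E11.5 and E17.5 (embryonic stages, in days), in RNA-seq of 16 samples and in lists of ChIP-seq peaks for 36 samples. Wild type embryos came from homozygous wild type C57BL/6J crosses. Humanized embryos came from homozygous crosses of a C57BL/6J line in which the human sequence of the enhancer hs754 replaces the mouse locus on chromosome 13, made by Cas9 editing of embryos and backcrossed to C57BL/6J. The RNA groups were E11.5 wild type, E11.5 humanized, E17.5 wild type and E17.5 humanized, with 4 samples each. Every sample pooled 6 embryos (E11.5) or 3 embryos (E17.5) of 1 litter, so stage cannot be told apart from litter, dissection and the number of embryos pooled. For each genotype, histone peaks were called separately in each sample, with 2 lists at the earlier stage and 3 at the later one. CTCF is described here from 3 lists of E17.5. The lot of H3K27ac antibody cross-reacted with an acetylated residue of histone H2B, according to the study's methods.

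LIN28A and LIN28B are RNA-binding proteins that block the maturation of let-7 microRNAs, and let-7 in turn represses their mRNAs, so the pair forms a switch between early and late developmental states. HMGA1 and HMGA2 are small chromatin proteins that bind AT-rich DNA and are abundant in embryonic stem and progenitor cells. IGF2BP1, IGF2BP2 and IGF2BP3 bind mRNAs, Igf2 mRNA among them, and influence their stability and translation. TRIM71, the mammalian relative of worm lin-41, is an RNA-binding ubiquitin ligase and a classic let-7 target. In the developing brain these genes are best known from early neural progenitors.

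The genes lie on 7 chromosomes of the mouse genome GRCm39, none of them the chromosome of hs754. Lin28a (ENSMUSG00000050966.10) spans chr4:133730641-133746173 on the minus strand, and Lin28b (ENSMUSG00000063804.9) spans chr10:45252646-45362557 on the minus strand. Hmga1 (ENSMUSG00000046711.17) spans chr17:27775449-27782648 on the plus strand, and Hmga2 (ENSMUSG00000056758.15) spans chr10:120197173-120313095 on the minus strand. Igf2bp1 (ENSMUSG00000013415.10) spans chr11:95847989-95896911, Igf2bp2 (ENSMUSG00000033581.18) chr16:21877759-21982499 and Igf2bp3 (ENSMUSG00000029814.11) chr6:49062144-49192447, all on the minus strand. Trim71 (ENSMUSG00000079259.3) spans chr9:114336201-114393437 on the minus strand.

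The members share a sequence feature that their choice by name did not use directly, a match to the let-7 seed in the 3′ UTR. Mature let-7 microRNAs pair with target mRNAs through bases 2 to 8, printed in capitals in these 4 sequences (RefSeq, GRCm38.p6):
mmu-let-7a-5p: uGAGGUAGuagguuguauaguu
mmu-let-7b-5p: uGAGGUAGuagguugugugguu
mmu-let-7i-5p: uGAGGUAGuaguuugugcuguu
mmu-miR-98-5p: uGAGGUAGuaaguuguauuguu
All 9 mature let-7 and miR-98 sequences in the table carried the same seed. Small RNA was not sequenced, so let-7 levels are not known in these samples.

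The complement of the seed, CTACCTC, was searched on the sense strand only in 1 annotated 3′ UTR per gene. It was found in 2489 of 21539 3′ UTRs (11.6%), and in 328 (1.52%) it was found 2 or more times. All 8 members held it. Lin28b, Hmga2, Igf2bp1 and Trim71 held 4 matches each, Lin28a held 2, and Hmga1, Igf2bp2 and Igf2bp3 held 1 each. Among 3′ UTRs of like length, 4 or more matches were found in 0.174% for Lin28b, 0.139% for Hmga2, 0.297% for Igf2bp1 and 0.27% for Trim71. As many matches as in the others were more common, in 2.11% for Lin28a, 8.42% for Hmga1, 12.4% for Igf2bp2 and 14% for Igf2bp3. Several of these genes are textbook let-7 targets, which is part of why they form a list, and a match is a description of the sequence.

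Hmga2 and Lin28b are shown in full because they carried equal numbers of matches and had the largest and the smallest stage differences in wild type RNA. The 30-base windows (GRCm39, 3′ UTR exon, minus strand) have the match in capitals:
Hmga2 match 1, chr10:120200118-120200147: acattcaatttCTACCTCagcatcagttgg
Hmga2 match 2, chr10:120198881-120198910: actcctcaataCTACCTCtgaatgctacag
Hmga2 match 3, chr10:120198443-120198472: tttgcaaggaaCTACCTCcacacttccaaa
Hmga2 match 4, chr10:120197585-120197614: aaaacacactaCTACCTCttaagtcccagt
Lin28b match 1, chr10:45257107-45257136: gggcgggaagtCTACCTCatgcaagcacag
Lin28b match 2, chr10:45254733-45254762: cttgttagtaaCTACCTCtgagtttgacat
Lin28b match 3, chr10:45254561-45254590: acagcacatggCTACCTCccagctaccaca
Lin28b match 4, chr10:45253145-45253174: gatggcaccgaCTACCTCttcaatcacttg
In both genes only match 1 was followed by an A, the longer form of the site.

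Before the values, 1 wild type library has to be set apart. Counts on genes ranged from 16414369 to 24272569 per RNA library (median 19300234). In E17.5 wild type replicate 1 genes with GC-poor exons were low and genes with GC-rich exons were high relative to the other replicates of its group. The median deviation from the group mean was -1.09 on the log2 scale in the lowest of 20 bins of exonic GC and 0.77 in the highest. In the other 15 libraries these medians ran from -0.46 to 0.42 and from -0.29 to 0.21. The same library also held more counts of erythroid, endothelial and microglial markers than the other 3 of its group, with summed levels of 240 CPM (counts scaled to library size) against 50.9 to 96.2, 216 against 97.3 to 107 and 68.1 against 31.3 to 32.8. The diencephalon markers (Tcf7l2, Lhx2, Lhx9, Gbx2, Otx2, Dbx1, Irx1, Irx2, Irx3, Barhl2) summed to 1434 to 2412 CPM over all 16 libraries. The sum hides changes within the list. Of these 10 genes 7 were called lower at E17.5 in each genotype and 1 (wild type) or 3 (humanized) higher. Their median log2 fold changes were -1.86 and -2.31. Of all genes tested, 26.7% were called lower and 29% higher in wild type, and 39.5% and 38.2% in humanized samples.

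The first comparison asked how the fetal timing genes differed between E11.5 and E17.5 in wild type diencephalon. In these bulk samples 7 of the 8 were lower at E17.5, by 4.15-fold to 75.2-fold, and the exception was Lin28b. Of all 18583 genes tested, 26.7% were called lower at E17.5 and 29% were called higher (edgeR quasi-likelihood test, Benjamini-Hochberg adjusted p under 0.05, 4 samples against 4). The median log2 fold change of the 8 genes was -4.47, beside -0.015 over all genes tested. Fewer cells that express a gene and less RNA of it per cell cannot be told apart in such samples.

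Among the LIN28 pair, Lin28a stood at 26.7, 48.6, 49.3 and 59.7 CPM in the 4 E11.5 wild type samples and at 1.31, 0.761, 0.597 and 1.43 CPM in the 4 E17.5 wild type samples. The lowest E11.5 sample was far above the highest E17.5 sample, where the gene had only 12 to 34 counts. Its log2 fold change was -5.48 (SE 0.37), a 44.7-fold lower level with a 95% interval of 26.9 to 74.2 (edgeR, adjusted p = 1.31e-06).

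Lin28b stood at 45.4, 35.9, 86.8 and 68.7 CPM at E11.5 and at 7.53, 38.6, 44.2 and 43.9 CPM at E17.5. The stages overlapped, and the 7.53 CPM came from the library with the GC deviation. The log2 fold change was -0.84 (SE 0.48) and did not pass the test (edgeR, adjusted p = 0.162), with a 95% interval of the E11.5 to E17.5 ratio from 0.929 to 3.43. Without that library it was -0.51 (adjusted p = 0.0782).

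Of the HMGA genes, Hmga2 stood at 205, 234, 215 and 230 CPM at E11.5 and at 2.72, 3.64, 3.13 and 2.36 CPM at E17.5. All E11.5 samples lay far above all E17.5 samples. The log2 fold change of -6.23 (SE 0.22), 75.2-fold with an interval of 56.1 to 100.8, had the lowest p of all genes tested (edgeR, adjusted p = 2.26e-07).

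Hmga1 stood at 194, 282, 197 and 221 CPM at E11.5 and at 101, 38.7, 37.7 and 39.9 CPM at E17.5. The stages did not overlap, but the GC-deviating library, at 101 CPM, lay far above the other 3 of its group. The log2 fold change was -2.05 (SE 0.34, edgeR adjusted p = 0.000435), and without that library it was -2.55 (adjusted p = 2.00e-08). Some reads can match both Hmga1 and its near-identical copy Hmga1b, which stood at 5.59 to 11.2 CPM at E11.5 and 1.24 to 4.23 CPM at E17.5.

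The 3 mRNA-binding IGF2BP genes were all lower at E17.5. Igf2bp1 had the highest level per length of the 8 at E11.5, with 509, 706, 572 and 699 CPM, and stood at 20.6, 16.7, 14.0 and 11.55 CPM at E17.5. The 2 sets were far apart, with a log2 fold change of -5.32 (SE 0.25, edgeR adjusted p = 3.12e-07). Igf2bp2, the member of the family known for expression in adult tissues, stood at 206, 230, 239 and 260 CPM at E11.5 and at 24.3, 24.6, 21.4 and 22.7 CPM at E17.5. The stages did not overlap. It had the lowest standard error of the 8, and its log2 fold change was -3.34 (SE 0.17, edgeR adjusted p = 3.81e-07). Igf2bp3 stood at 193, 176, 232 and 217 CPM at E11.5 and at 11.8, 21.4, 16.9 and 16.6 CPM at E17.5. These groups did not overlap either, and the log2 fold change was -3.63 (SE 0.23, edgeR adjusted p = 8.91e-07).

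Trim71 was the least abundant of the 8 per length at both stages. It stood at 19.3, 28.1, 29.1 and 36.7 CPM at E11.5 and at 0.261, 0.435, 0.547 and 0.548 CPM at E17.5, the latter from 5 to 13 counts. The stages were far apart, with a log2 fold change of -5.96 (SE 0.32, edgeR adjusted p = 4.42e-07). Taken over the 8 genes, wild type samples did not overlap between stages in 7 (50.3% of all genes tested), with Lin28b the exception.

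**Figure D1:**
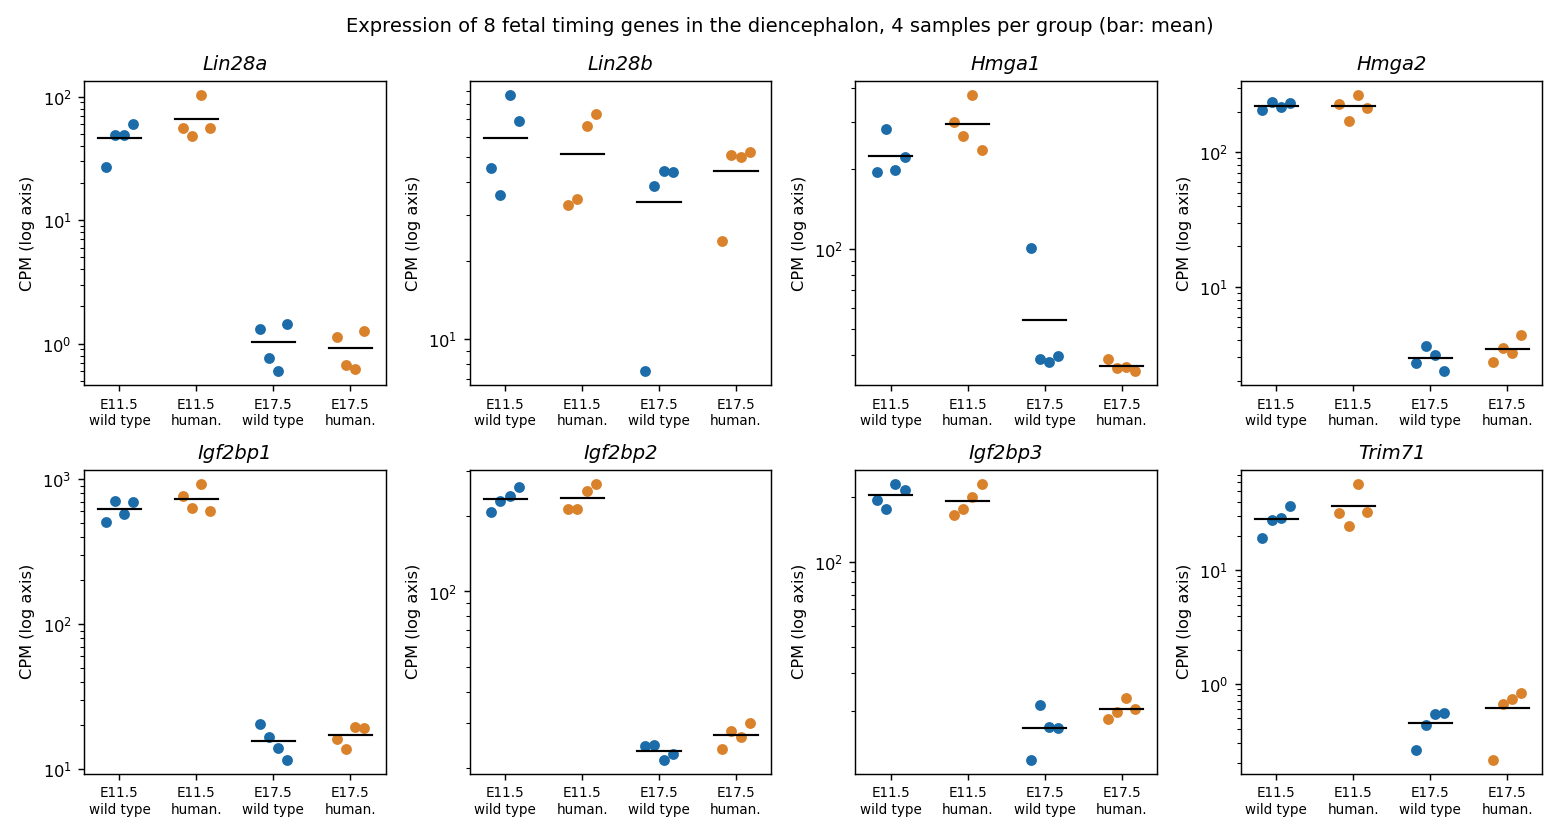
Level of each of the 8 genes (CPM, log axis) in every RNA sample, by stage and genotype; each point is 1 sample. The E17.5 samples lie below all E11.5 samples of the same genotype in 7 genes, and overlap them in Lin28b.

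Per length (RPKM on annotated exon length), the order of the mean levels in E11.5 wild type samples was Igf2bp1 at 60.4, Hmga1 at 48.4, Igf2bp2 at 29.1, Hmga2 at 25.6, Igf2bp3 at 23.4, Lin28a at 11.46, Lin28b at 6.14 and Trim71 at 3.03. At E17.5 the order was Hmga1 at 11.7, Lin28b at 3.49, Igf2bp2 at 2.89, Igf2bp3 at 1.91, Igf2bp1 at 1.53, Hmga2 at 0.344, Lin28a at 0.255 and Trim71 at 0.0480. Lin28b thus moved from the seventh place to the second, although its SD of 1.82 RPKM at E17.5 spans the means of Igf2bp2 and Igf2bp3. At E11.5 the neighbours Igf2bp2, Hmga2 and Igf2bp3 lay within a few RPKM of each other, with SDs of 2.81, 1.57 and 2.85.

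The same stage contrast in humanized embryos used other litters. Again 7 of 8 genes were lower at E17.5, where 39.5% of 18781 genes tested were called lower and 38.2% higher, and the members' median log2 fold change was -4.34, beside -0.040 over all genes. Lin28a stood at 56.1, 48.3, 103 and 56.3 CPM at E11.5 and at 1.12, 0.667, 0.618 and 1.27 CPM at E17.5. The stages were far apart, and the E11.5 replicate 3 was the highest of the 16 samples. The log2 fold change was -6.17 (SE 0.32, edgeR adjusted p = 8.26e-09).

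Lin28b stood at 32.8, 34.6, 65.7 and 73.4 CPM at E11.5 and at 23.9, 50.9, 50.1 and 52.2 CPM at E17.5. The groups overlapped and the log2 fold change of -0.24 (SE 0.30) did not pass the test (edgeR, adjusted p = 0.475), with an interval of the E11.5 to E17.5 ratio from 0.785 to 1.78. Hmga1 stood at 298, 264, 378 and 235 CPM at E11.5 and at 38.7, 35.7, 36.2 and 34.8 CPM at E17.5. Its 4 samples at E17.5 lay close together, and the log2 fold change was -3.02 (SE 0.15, edgeR adjusted p = 5.28e-09).

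The other 5 genes had log2 fold changes of -6.00 (Hmga2), -5.94 (Trim71), -5.42 (Igf2bp1), -3.26 (Igf2bp3) and -3.14 (Igf2bp2), with edgeR adjusted p-values of 4.98e-10, 3.08e-08, 5.78e-10, 2.79e-09 and 2.23e-09. Their stages did not overlap. Non-overlap in the humanized samples was found for 7 members, all but Lin28b, and for 71.8% of all genes tested.

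**Figure D2:**
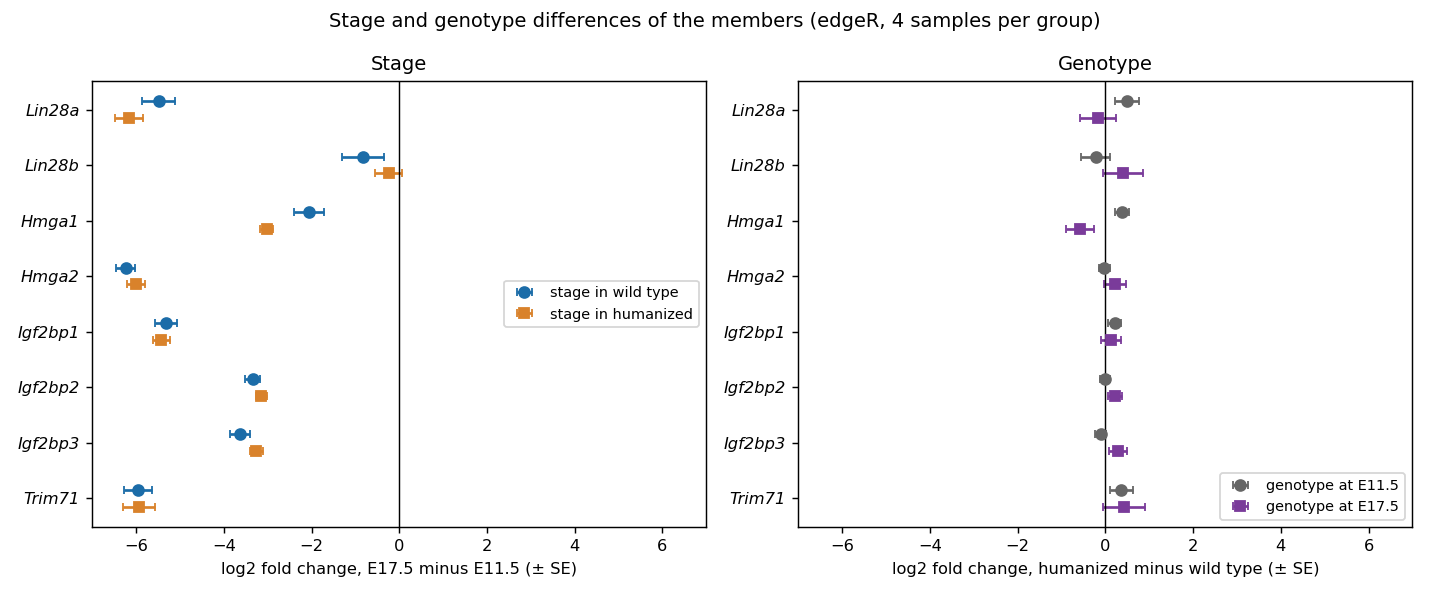
Log2 fold changes of the 8 genes with standard errors (edgeR, 4 samples per group), between stages within each genotype on the left and between genotypes within each stage on the right. In the left panel 7 genes lie between -6.23 and -2.05 and Lin28b lies nearest 0, and in the right panel all values lie between -0.59 and 0.49.

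Exonic GC content differed among the members, from 41.2% in Lin28b and 43.6% in Hmga2 to 60.5% in Hmga1. Lin28b deviated from its group mean to the same side as the GC-poorest bin of genes in 14 of 16 libraries. Hmga1 deviated to the same side as the GC-richest bin in 13 of 16. With library-specific offsets for exonic GC, an alternative chosen after seeing the data, all 8 members were lower at E17.5 in both genotypes. These offsets were measured from the mean over both stages, not from the group mean. They therefore also took out any stage difference shared by genes of like GC. Lin28b then had log2 fold changes of -1.26 in wild type (edgeR, adjusted p = 0.00171) and -1.11 in humanized samples (adjusted p = 0.000159). The Lin28b call therefore depends on this setting, while the calls of the other 7 do not.

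**Figure D3:**
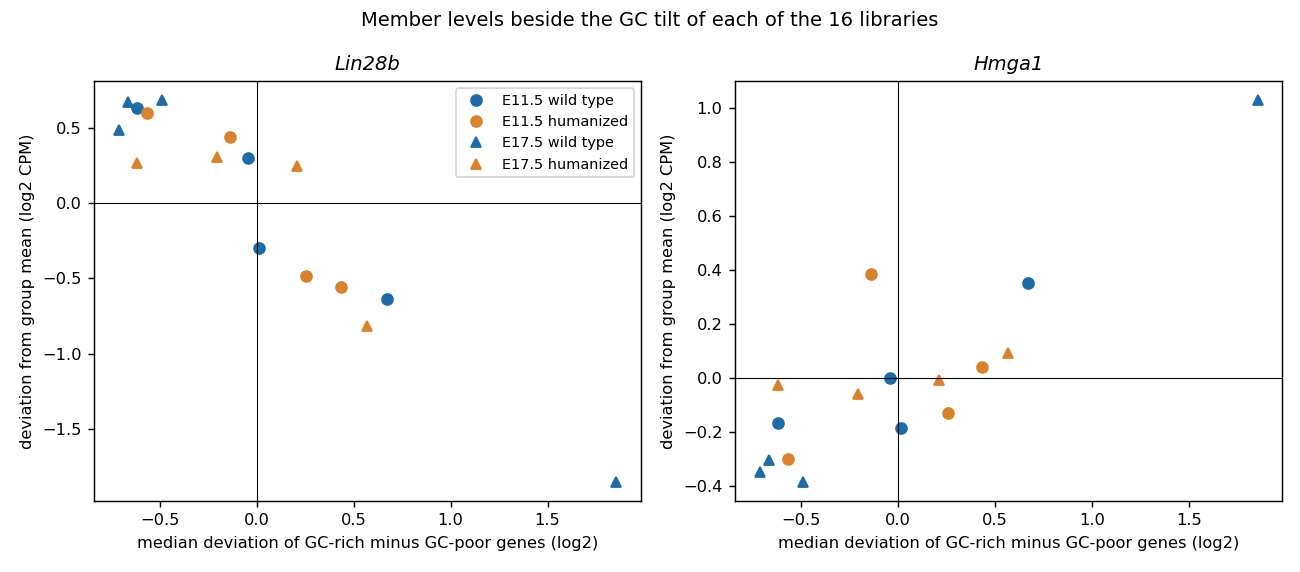
Deviation of Lin28b (left) and Hmga1 (right) from the group mean (log2 CPM) against the median deviation of the GC-richest minus the GC-poorest bin of genes in the same library (log2); each point is 1 of 16 libraries. E17.5 wild type replicate 1 lies alone at the right of both panels, lowest for Lin28b and highest for Hmga1.

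One experiment of the study asked whether the humanized enhancer changes gene expression, and for the fetal timing genes no genotype difference passed the test. At E11.5, 0 of 8 members were called among 17816 genes tested, of which 0% were called by edgeR. Over all genes, 1058 had an unadjusted p under 0.05, DESeq2 called 2 genes and an edgeR fit of all 16 samples called 1. The largest difference among members was that of Lin28a, with a log2 fold change of 0.49 (humanized minus wild type, SE 0.27, adjusted p = 0.577) and an interval from 0.969-fold to 2.04-fold. Without the humanized replicate 3 at 103 CPM the Lin28a difference was 0.18, and without wild type replicate 1 it was 0.30. Hmga1 had 0.37 (SE 0.16, adjusted p = 0.577, unadjusted p = 0.0396) with an interval from 1.04-fold to 1.6-fold, and it was 0.22 without humanized replicate 3. In 0 members did the genotypes not overlap at E11.5, beside 2.5% of all genes.

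At E17.5 again 0 of 8 members and 0% of 18763 genes were called by edgeR, with 207 genes at an unadjusted p under 0.05 and 1 gene called by DESeq2. The largest difference was that of Hmga1, -0.59 on the log2 scale (SE 0.32, adjusted p = 0.808), with an interval of the wild type to humanized ratio from 0.977 to 2.31. It was -0.098 without the GC-deviating wild type library. Likewise the Lin28b difference of 0.40 (SE 0.46, adjusted p = 0.808) was 0.063 without that library, and 0.61 without humanized replicate 1. Trim71 had 0.42 (SE 0.48, adjusted p = 0.808) on 4 to 13 counts per sample, and it was 0.71 without humanized replicate 1, 0.24 without humanized replicate 4 and 0.23 without wild type replicate 1. In 0 members did the genotypes not overlap, beside 1.21% of all genes.

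Whether the stage difference itself depended on genotype was tested as an interaction, and 0 of 8 members and 0% of 20234 genes passed (edgeR, 1610 genes at an unadjusted p under 0.05). Hmga1 had the largest value, -0.97 (SE 0.37, adjusted p = 0.462), which was -0.48 without E17.5 wild type replicate 1. Lin28a had -0.69 (SE 0.49, adjusted p = 0.477) and Lin28b 0.60 (SE 0.61, adjusted p = 0.587). Without E11.5 humanized replicate 3 the Lin28a value was -0.39. The Lin28b value was 0.36 without E11.5 wild type replicate 3 and 0.26 without E17.5 wild type replicate 1. At this sample number the 95% intervals, as ratios in the direction of the estimate, ran from 0.83 to 3.13 for Lin28a and from 0.659 to 3.47 for Lin28b.

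Cell markers moved with stage beside the members. The counts stand beside 26.7% of all genes called lower and 29% called higher in wild type. In humanized samples these shares were 39.5% and 38.2%. All 10 progenitor and cycling markers fell in both genotypes, with a median of -2.60 in wild type, and their summed level went from 4715 to 5373 CPM at E11.5 down to 640 to 899 CPM at E17.5. Of 7 neuronal markers 6 rose, and all 5 astrocyte markers rose. Of 5 oligodendrocyte lineage markers 4 rose in each genotype and 1 fell in humanized samples. Of 5 choroid plexus and meninges markers 3 rose and 2 fell in each. Of 4 microglial and 3 endothelial markers, 1 each rose in each genotype. In humanized samples 1 microglial and 2 endothelial markers fell. Of the midbrain markers En1 and En2 0 were called in wild type and 1 fell in humanized samples. Of 5 erythroid markers 3 fell in wild type and 4 in humanized samples, and their sum went from 1650 to 5290 CPM down to 50.9 to 240 CPM. The part of these cell types in the members' differences was not tested.

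Genes around the members moved in different directions. Beside the counts in this paragraph and the next, 26.7% of all genes tested were called lower and 29% higher in wild type. In humanized samples 39.5% were called lower and 38.2% higher, so some of the smaller counts lie near these shares. Of 18 other known let-7 targets 15 fell and 2 rose in wild type, with a median of -1.68 (15 and 3 in humanized samples, median -1.86). The cyclins Ccnd2 and Ccnd1 fell by 3.64 and 3.29 on the log2 scale, while Myc, a growth-promoting transcription factor, rose by 1.58. Of 16 genes of microRNA maturation, loading and decay 9 fell and 2 rose (8 and 5 in humanized samples), with a median of -0.54 in wild type. The Argonaute genes, whose proteins hold the microRNA, were split, with Ago1 at -2.08 and Ago3 and Ago4 at 1.33 and 0.99. Khsrp, whose protein promotes let-7 processing, was at -1.08.

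Of 8 relatives among the high mobility group genes 6 fell and 0 rose, with a median of -1.60, and Hmgb2, a DNA-bending protein gene, fell by 4.28 and the nucleosome-binding Hmgn2 by 2.11. In humanized samples 6 fell and 1 rose, with a median of -1.49. Of 8 genes of the Igf2 axis, the ligand and receptor system to which the IGF2BP name refers, 5 fell and 1 rose, with a median of -0.87 (6 and 2 in humanized samples, median -0.70). The imprinted RNA H19 fell by 1.73 and the binding protein gene Igfbp2 by 1.54, and the ligand Igf1 rose by 1.06. Of 7 factors of late progenitors 4 rose and 3 fell in both genotypes, with Nfix and Nfib, transcription factors of the nuclear factor I family, at 3.58 and 2.57 and the POU factors Pou3f2 and Pou3f3 at -2.24 and -1.46. The values given for single genes are log2 fold changes in wild type that passed the edgeR test.

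As a description over the 16 samples, the genes most like each member by Pearson correlation of log2 CPM among 14826 genes were Dera and Igdcc3 for Lin28a (r = 0.995 and 0.994) and Firrm and Igf2bp2 for Hmga2 (both r = 0.998). They were Tacc3 and Mcm10 for Igf2bp1, Hmga2 and Sinhcaf for Igf2bp2, Gli3 and Tmem123 for Igf2bp3, Pdk3 and Hnrnpf for Trim71, and Ahcy and Metrn for Hmga1. The 16 points fall into 2 stages, so any gene with a like stage difference scores highly, and 967 to 1842 genes had r over 0.95 with these 7 members. Lin28b had 21 such genes, led by Fgfr1op2 and Pde3b (r = 0.979 and 0.978), and its values share the GC deviation of the libraries. Within groups Lin28b had r = 0.86 with Igf2bp3, 0.70 with Trim71 and -0.77 with Hmga1, and with the other 4 members r lay between -0.38 and 0.36.

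The chromatin lists give the same genes at their promoters, taken as 1000 bp to either side of any annotated start. H3K4me3 marks active and poised promoters, H3K27ac active promoters and enhancers, and H3K27me3 is the mark of Polycomb repression. The deposited value is the fold enrichment of a peak over the local background as the peak caller gave it. A promoter was counted as marked when every wild type list of that stage had a peak there. With 2 lists against 3, an exact permutation test cannot reach p under 0.05, so no test is given. The share of all promoters whose enrichments do not overlap between stages was not computed. A lack of overlap below therefore only describes the values of the member named. The stages also differed as whole lists, with a median promoter enrichment for H3K27ac of 10.3 in both E11.5 lists and 19.2 to 21.9 at E17.5.

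H3K4me3 was present at 8 of 8 members at both stages, where 65.6% (E11.5) and 65.8% (E17.5) of 21757 protein-coding genes were marked. H3K27ac was present at 8 of 8 in the E11.5 lists and at 7 of 8 in the E17.5 lists, beside 49.9% and 59.8% of genes. H3K27me3 was present at 1 of 8 in the E11.5 lists and at 8 of 8 in the E17.5 lists, beside 21.9% and 22.4% of genes. Marked at E17.5 only were 7 members and 4.38% of genes. At E17.5 each of the 3 marks was found near some annotated start of 7 members, a state found at 13.6% of genes. The marks were counted at any start of a gene, so they need not share a start. In bulk samples they also need not share a cell.

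The E11.5 count for H3K27me3 rests on 1 list. Wild type list 1 also had peaks at Lin28a, Lin28b, Hmga1 and Trim71, with fold enrichments of 2.94, 2.91, 3.15 and 4.71. List 2, the shorter of the 2 with 13850 peaks against 19166, had none of these in the promoter windows. Without it 5 of 8 members were marked at E11.5. Inside the Trim71 gene, however, every E11.5 list of both genotypes had 1 H3K27me3 peak, covering 3.45% to 7.98% of the bases. Igf2bp1, Igf2bp2 and Igf2bp3 had no peak in either list. In humanized samples Lin28a and Hmga2 were marked in both E11.5 lists and all 8 members in the 3 E17.5 lists.

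Hmga2 was the member with H3K27me3 in both E11.5 lists, at fold enrichments of 4.01 and 3.46, and it stood at 9.61, 8.68 and 9.01 at E17.5. All E17.5 values were above the E11.5 values. Within the gene, H3K27me3 peaks covered 2.54% to 3.45% of the bases in the E11.5 lists and 33.8% to 52% in the E17.5 lists. The E17.5 lists were also longer, with 27452 to 43700 peaks, and the longest of them gave the 52%. Its H3K4me3 enrichment stood at 57.7 and 57.5 at E11.5 and at 31.4, 29.4 and 29.5 at E17.5. Its H3K27ac enrichment stood at 10.9 and 16.6 at E11.5 and at 5.11, 8.29 and 7.001 at E17.5. For both of these marks the promoter values did not overlap between stages and E17.5 was lower, although the median H3K27ac of all promoters was higher at E17.5. Over the whole gene, H3K27ac peaks numbered 5 in each E11.5 list and 8 to 9 in the E17.5 lists. They covered 4.14% to 4.77% and 5.64% to 6.77% of the bases. The wild type H3K27ac lists as a whole held 32418 to 36150 peaks at E11.5 and 62720 to 77419 at E17.5.

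Trim71 had the highest H3K27me3 enrichment of the 8 at E17.5, at 14.5, 11.1 and 11.3. It was higher there than 93.4% of all marked promoters. Over the whole of Trim71, H3K27me3 peaks covered 4.34% to 7.52% of the bases in the wild type E11.5 lists and 30.5% to 42.2% in the E17.5 lists. Its H3K27ac stood at 15.4 and 24.6 at E11.5, and there was no H3K27ac peak in any of the 3 E17.5 wild type lists, at the promoter or anywhere in the gene. A promoter marked with H3K27ac at E11.5 only was found in 1 member and 1.03% of genes. H3K4me3 at Trim71 stood at 44.5 and 38.8 at E11.5 and at 42.2, 40.1 and 37.7 at E17.5. These wild type values overlapped, but the percentile among marked promoters went from 40.1 to 23.3. The humanized values did not overlap and were lower at E17.5, at 35.7 and 45.5 and then 25.3, 24.5 and 33.2. In wild type lists the H3K4me3 peak narrowed from 5294 to 5544 bp to 2259 to 2492 bp.

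Lin28a had H3K27me3 at 7.37, 6.70 and 6.33 at E17.5. Its H3K4me3 stood at 42.8 and 31.7 at E11.5 and at 9.05, 21.1 and 18.98 at E17.5, the lowest of the 8. Its H3K27ac stood at 18.5 and 14.9 at E11.5 and at 7.57, 4.30 and 6.02 at E17.5. Neither mark overlapped between stages. H3K27ac peaks within the gene itself numbered 3 to 4 at E11.5 and 0 in all 3 lists at E17.5, so that the remaining H3K27ac near its start lay outside the gene record.

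The 3 IGF2BP genes had the lowest H3K27me3 enrichments of the 8 at E17.5. Igf2bp2 stood at 3.66, 3.31 and 3.58, Igf2bp3 at 5.50, 4.62 and 4.84 and Igf2bp1 at 5.82, 4.47 and 4.88. The highest H3K27ac peak at their promoters was lower at E17.5 in every list, at 10.6 to 13.5 against 18.2 to 21.8 for Igf2bp2, 12.6 to 18.1 against 24.4 to 29.7 for Igf2bp3 and 8.79 to 11.7 against 23.2 to 24.8 for Igf2bp1. Over the whole gene, however, Igf2bp3 had 1 to 2 H3K27ac peaks at E11.5 and 5 to 8 at E17.5, where the H3K27ac lists as a whole were longer. H3K4me3 at Igf2bp2 stood at 50.5 and 52.9 at E11.5 and at 69.8, 75.3 and 64.6 at E17.5. These wild type values did not overlap, but the humanized ones did, at 67.6 and 59.3 and then 72.8, 67.1 and 62.7. At Igf2bp1 the wild type values were 54.6 and 78.0 and then 55.4, 52.2 and 39.8, and at Igf2bp3 they were 72.0 and 60.5 and then 46.2, 60.1 and 42.6. The H3K4me3 peak of Igf2bp3 narrowed from 10748 to 10818 bp to 3402 to 3614 bp.

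Hmga1 had H3K4me3 and H3K27ac peaks at both stages. H3K4me3 stood at 57.8 and 62.9 at E11.5 and at 59.5, 72.7 and 63.1 at E17.5, and H3K27ac at 17.8 and 25.1 and then 26.8, 18.5 and 27.8. Both overlapped between stages. Its H3K27ac peak narrowed from 3460 to 3896 bp to 1326 to 2241 bp, and its percentile among marked promoters went from 84.5 to 58.0, so it lay lower relative to other promoters. Its H3K27me3 peaks of 8.49, 7.27 and 6.95 at E17.5 ended 104 to 213 bp before the gene record, on the upstream side of the promoter.

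**Figure D4:**
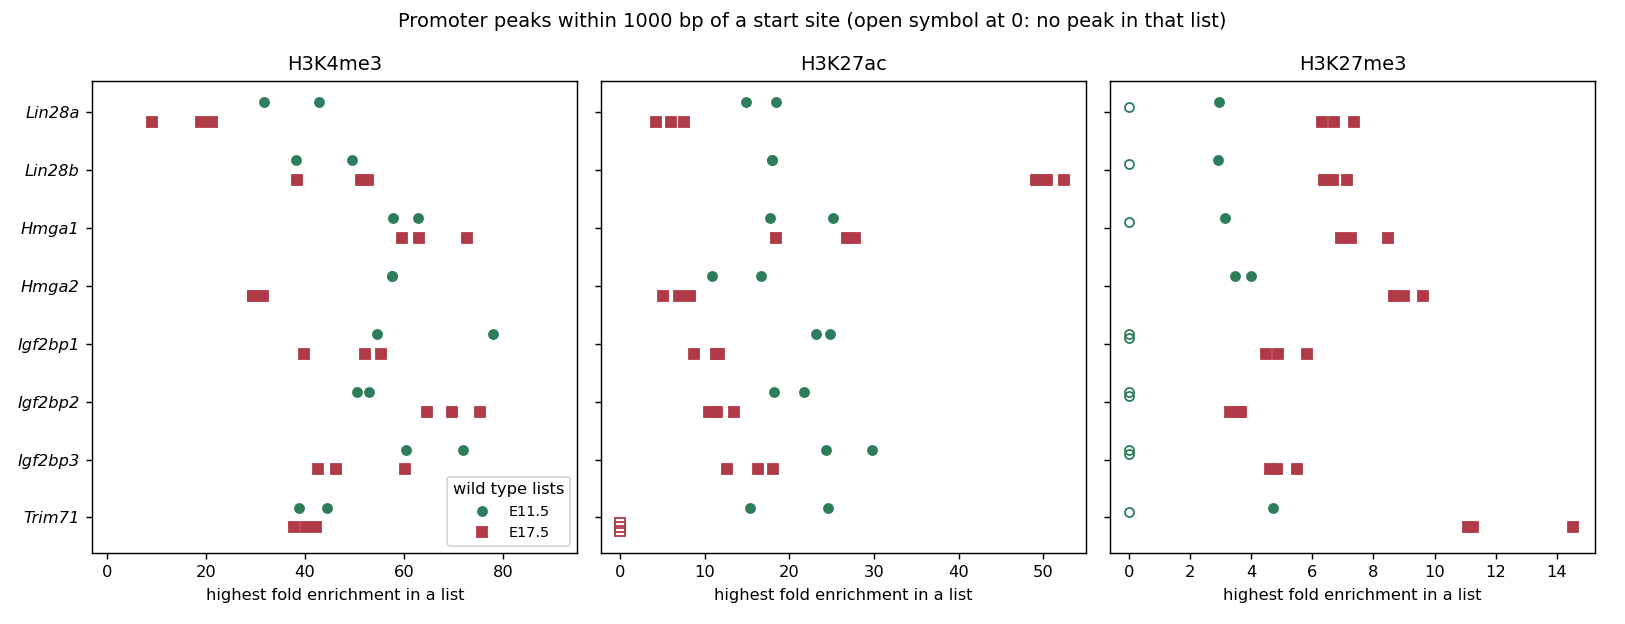
Highest fold enrichment of H3K4me3, H3K27ac and H3K27me3 within 1000 bp of the starts of the 8 genes in each wild type list, by stage; a value of 0 stands for no peak. H3K27me3 is higher at E17.5 in all 8 genes, and H3K27ac is lower in all but Lin28b and Hmga1.

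In Lin28b the marks at 2 promoters went different ways, whereas the other members are described over all their annotated starts together (1 to 15 per gene). Transcripts of this gene start in an upstream cluster of 4 annotated starts at chr10:45362557 and at an internal start at chr10:45346356, which lies 16201 bp downstream and begins the annotated full-length transcript. The 300 bases from 250 before to 50 after each start (GRCm39, minus strand) are shown because the marks at them diverged, with CG dinucleotides in capitals:
Lin28b upstream start, chr10:45362508-45362807: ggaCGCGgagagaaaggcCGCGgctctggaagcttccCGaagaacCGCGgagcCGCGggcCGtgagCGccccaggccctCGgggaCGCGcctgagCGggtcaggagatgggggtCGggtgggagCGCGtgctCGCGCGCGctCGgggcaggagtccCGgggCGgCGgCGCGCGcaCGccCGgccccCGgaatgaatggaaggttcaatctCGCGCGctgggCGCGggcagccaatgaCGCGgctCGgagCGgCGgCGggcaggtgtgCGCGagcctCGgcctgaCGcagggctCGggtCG
Lin28b internal start, chr10:45346307-45346606: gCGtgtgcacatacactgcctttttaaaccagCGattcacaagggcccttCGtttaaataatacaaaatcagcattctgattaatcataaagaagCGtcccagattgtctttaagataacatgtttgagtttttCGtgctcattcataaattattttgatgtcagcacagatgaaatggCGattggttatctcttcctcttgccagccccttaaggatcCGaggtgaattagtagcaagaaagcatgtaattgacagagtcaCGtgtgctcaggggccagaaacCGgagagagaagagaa
The upstream window held 49 CG dinucleotides, more than 99.7% of 21756 promoters of the same length, and the internal window held 9. CG, which reads the same on both strands, occurs in 94.4% of such promoters, with a median of 8.

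At the upstream starts of Lin28b, H3K27ac stood at 16.6 and 14.6 at E11.5 and at 52.4, 49.1 and 50.4 at E17.5. At the internal start it stood at 17.98 and 18 at E11.5, and at E17.5 there was no peak in 2 lists and one of 3.50 in the third. So H3K27ac was higher upstream and nearly absent from the internal start at the later stage. Among marked promoters, the gene's highest H3K27ac went from percentile 77.1 to percentile 95.6. That highest peak lay at the internal start at E11.5 and at the upstream starts at E17.5, so the percentiles belong to different promoters.

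H3K4me3 at the upstream starts stood at 37.8 and 49.5 at E11.5 and at 51.3, 38.5 and 52.7 at E17.5. At the internal start it stood at 38.1 and 37.9 and then at 15.5, 11.8 and 11.2. The stages overlapped upstream and were separate at the internal start. H3K27me3 at the internal start had no peak in either E11.5 list and stood at 7.14, 6.67 and 6.398 at E17.5, whereas upstream it stood at 2.91 in 1 list at E11.5 and at 3.22, 3.03 and 2.80 at E17.5.

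In the humanized lists of E17.5, H3K27ac was likewise higher at the upstream starts than at the internal start. Upstream it stood at 14.98 and 18 at E11.5 and at 48.5, 44.4 and 18.7 at E17.5, so list 3 lay close to E11.5. At the internal start it stood at 21.8 and 14.9 and then at 3.46 in 1 list with no peak in 2. In E11.5 list 2 the upstream peak was higher than the internal one, unlike in wild type. H3K27me3 at the internal start had no peak at E11.5 and stood at 6.43, 6.96 and 5.82 at E17.5. The gene counts pool transcripts from both starts, so which transcripts made up the Lin28b reads at E17.5 was not tested.

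**Figure D5:**
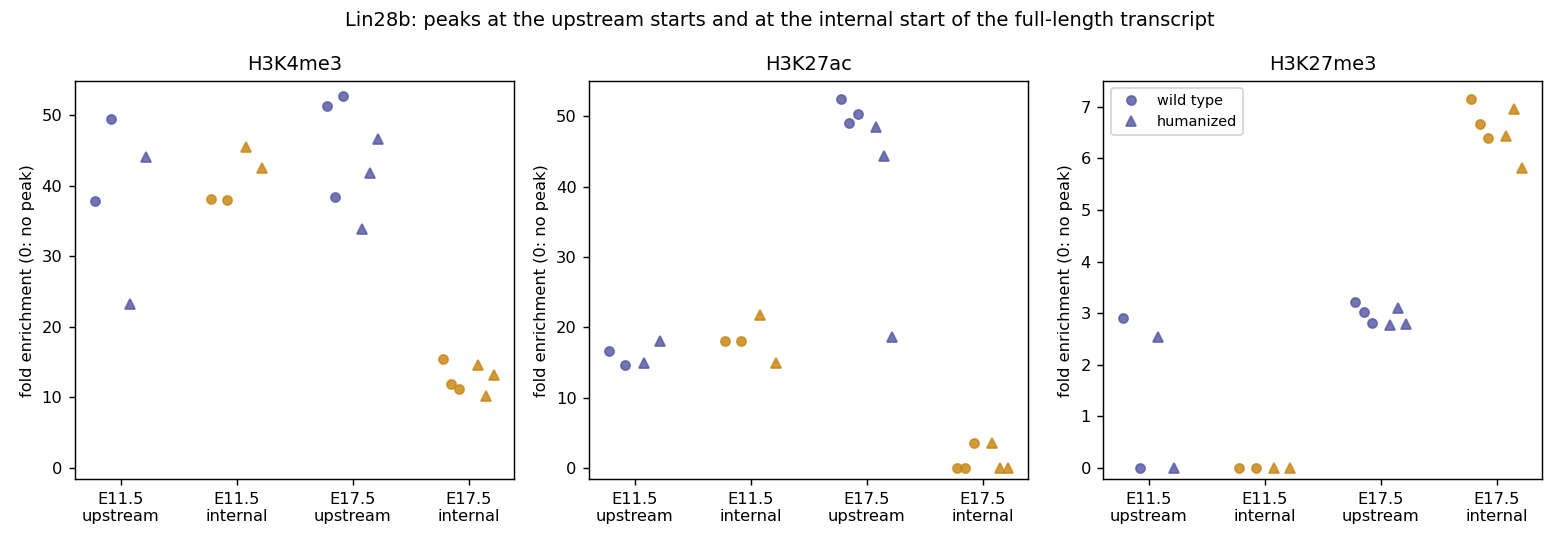
Fold enrichment of peaks within 1000 bp of the upstream starts and of the internal start of Lin28b, by stage; circles are wild type lists, triangles are humanized lists, and 0 stands for no peak. At E17.5 H3K27ac reaches 52.4 upstream while it is at most 3.50 at the internal start, where H3K27me3 reaches 7.14.

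CTCF, which shapes chromatin loops, was mapped at E17.5 in both genotypes. Peaks in all 3 wild type lists lay at 5 of 8 members, beside 41.4% of genes. They were highest at the upstream starts of Lin28b, at 21.3, 12.03 and 16.9, and at an annotated start 6476 bp inside Lin28a, at 16.7, 10.9 and 10.02. Hmga1, Igf2bp1 and Igf2bp2 had lower peaks, from 2.92 to 9.27. There was no CTCF peak at Hmga2 or Igf2bp3, and one in 1 of 3 lists at Trim71. In the humanized lists, which were shorter (54857 to 59845 peaks against 61582 to 78661), Lin28a, Lin28b, Hmga1 and Igf2bp2 again had peaks in all 3 and Igf2bp1 in 0 of 3, a difference that was not tested.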

How the data were processed

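RNA counts and ChIP-seq peaks of wild type and humanized diencephalon were used as deposited. The authors aligned polyA-selected RNA-seq reads to mm39 with STAR 2.7.9a and deposited raw counts per gene (GENCODE M31). Counts without regard to strand (column 2) were used. Antisense or overlapping transcripts at Lin28a, Hmga1, Igf2bp1 and Igf2bp3 can therefore affect the counts of these members. The strand column is an alternative. Reads not assigned to a single gene, 48.1% to 58.4% per library and unmapped reads among them, were left out. The authors aligned ChIP-seq reads with Bowtie2 2.4.2 and called peaks per sample with MACS2 2.2.7.1; the deposited lists give a fold (ratio) over background and −log10 q. How H3K27me3 peaks were called is not given in the sources used here beyond the broad form of its lists.

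Counts were tested with edgeR 4.0.16 (R 4.3.3; filterByExpr, TMM, quasi-likelihood test, Benjamini-Hochberg over all genes tested); DESeq2 1.42.0, other scalings, no filter, the strand column, a replicate block and leaving out each sample were alternatives. Starts and symbols came from GENCODE M39 on GRCm39 (98.8% of gene IDs matched). The scripts were tested on simulated data. The 8 members and all lists were chosen with earlier results of these data known. Genes outside the members were named from the lists by rule, as the called genes with the 2 largest falls and 2 largest rises in wild type, and by correlation as the 2 genes most like each member; some results under this rule and 1 marker list are not reported here. Samples are separate litters, and p-values measure the spread between them. Each edgeR SE was derived from the log2 fold change and the F statistic of its test. The 95% intervals were made from this SE with a normal quantile, so they are narrower than the quasi-likelihood test implies.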

Additional observations from a re-analysis of the deposited data

Results flagged for a closer look

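In 32 sets of 4 samples (8 genes in 4 RNA groups), 4 had 1 sample far from the others by Dixon's ratio at its 95% critical value, where chance gives about 1 in 20 sets. In E17.5 wild type replicate 1, Hmga1 stood at 100.5 CPM while the other 3 samples stood at 37.7 to 39.9. In the same library Lin28b stood at 7.53 CPM while the others stood at 38.6 to 44.2. This is the library in which GC-poor genes were low and GC-rich genes high. In E17.5 humanized replicate 1, Lin28b stood at 23.9 CPM while the others stood at 50.1 to 52.2. In E11.5 humanized replicate 3, Lin28a stood at 103.5 CPM while the others stood at 48.3 to 56.3. What set these samples apart was not tested.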

How the results depend on the processing

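Of 870 values computed under an alternative setting, 836 kept their direction and their side of the threshold, or their count. No stage difference of a member changed direction in 240 values, and 7 members were called in each genotype whichever sample was left out. Lin28b passed in both genotypes with GC offsets, as given above. Leaving out 1 sample gave 9147 to 13994 genes called for stage in wild type and 14217 to 15103 in humanized samples. In no comparison did every same-numbered pair deviate together (r over 0.1 in 6 of 16 pairs, from -0.45 to 0.48; 4 of 16 samples correlated best with their own number). Between genotypes at E17.5, 3 of 4 pairs passed 0.1, with the fourth at 0.051. With a replicate block, 9466 genes were called for stage in wild type and 14454 in humanized samples, 7 members in each, and 0 for genotype or interaction.

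The count of genes called between genotypes at E11.5 was 2 by DESeq2 and 1 in a fit of all 16 samples, and at E17.5 it was 1 by DESeq2. The number of members with H3K27me3 at E11.5 was 0 with −log10 q of at least 5, 2 with a window of 2500 bp, 2 in the humanized lists, and 1 to 5 when 1 list was left out. At E17.5 it was 7 with that q limit (without Igf2bp2) and 7 with an overlap of at least 50% (without Hmga1). Small genotype differences changed sign. At E11.5 Igf2bp2 was 0.0134 in the fit of all samples and -0.0846 to 0.0455 when 1 sample was left out, Hmga2 was -0.14 to 0.0754 and Lin28b was -0.45 to 0.0262. With GC offsets Hmga2 was 0.15 and Lin28b 0.0543. At E17.5 Lin28a was -0.36 to 0.0551 when 1 sample was left out and Hmga2 was -0.0328 with GC offsets. In the interaction, leaving out 1 sample gave Trim71 -0.16 to 0.33 and Igf2bp1 -0.24 to 0.0539, and GC offsets gave Igf2bp1 0.0946 and Hmga2 -0.14. The cause was not tested. On the strand column Trim71 did not pass the filter for the E17.5 genotype comparison, so that value was not run. At E17.5 Lin28a and Trim71 rest on 4 to 34 counts per sample, which limits their genotype comparison.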
